A study of Homo sapiens with 24 samples.

Results

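The receptors described here are 10 genes, FZD1 to FZD8 and the co-receptor genes LRP5 and LRP6, taken by symbol from the 28277 genes listed in each of 2 tables of RNA-seq counts. All 10 were listed in both tables and passed the filter on low counts in both. PEO1 and PEO4 are human ovarian adenocarcinoma cell lines from the same patient, PEO1 sensitive and PEO4 resistant to cisplatin. According to the study, PEO1 carries a nonsense mutation in BRCA2, and in PEO4 a reversion brought back its reading frame. The table of 6 libraries holds untreated PEO1 cells, labelled WT and described in the study's methods as impaired in BRCA2, and untreated PEO4 cells labelled WT, both grown with added sodium pyruvate. The table of 18 libraries holds PEO1 cells labelled BRCA2+ (PEO1 BRCA+ below), which regained BRCA2 through a spontaneous reversion, and PEO4 cells labelled WT. Both of these lines were left untreated (0 h) or kept in medium with 5 µM pyridostatin (PDS), a small molecule that binds G-quadruplex (G4) structures in DNA, for 2 or 6 h. Each of the 8 conditions had 3 replicate libraries. The labels do not say whether they came from separate cultures, so p-values measure only the spread between these libraries, and they name no vehicle for the untreated cells.

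Frizzled proteins are receptors that cross the membrane repeatedly and bind secreted WNT ligands through an extracellular cysteine-rich domain. With LRP5 or LRP6 as co-receptor, a bound frizzled recruits dishevelled and AXIN to the membrane, the complex that degrades beta-catenin is disabled, and beta-catenin acts with TCF/LEF factors on target genes. Without LRP5 or LRP6, frizzleds also act in planar cell polarity and calcium signalling, and in ovarian carcinoma FZD7 in particular has been studied as a receptor of stem-like cells.

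Library depth ran from 32528913 to 63882077 gene counts in the table of 6 and from 18699929 to 43713947 in the table of 18. Within the latter, the untreated libraries held 18699929 to 22375644 counts and the PDS libraries 33260167 to 43713947, and ribosomal RNA genes took 0.217 to 0.474% of the counts in untreated and 0.0164 to 0.0369% in PDS libraries. Depth and this share therefore moved with treatment, and their part in the results was not tested. The lowest count of any of the 10 genes in any library was 149 and the highest 18184. Of gene counts from 1 to 20, 68.6 to 74.0% were even in the table of 6 libraries against 41.5 to 43.8% in the table of 18. The counting options are not given in the sources used here, so counts of the smaller table may hold less independent information than their size gives. Values of the 2 tables were not tested against each other. Of 12 ovarian carcinoma epithelial markers, 10 reached a mean of 1 CPM (gene counts scaled by TMM-adjusted library size) in each PEO1 condition and 11 in each PEO4 condition, PAX8, WT1 and EPCAM among them, whereas SOX17 did not exceed a mean of 0.197 CPM anywhere. Immune markers were near 0 apart from CD68 (1 of 6 at 1 CPM or more), and the 4 endothelial markers summed to at most 2.76 CPM in any library. The 8 fibroblast and mesothelial markers summed to 10.4 to 14.7 CPM in untreated PEO1 BRCA+, 26.3 to 27.9 at 2 h and 22.1 to 24.7 at 6 h of PDS, and to 36.5 to 38.7, 16.4 to 21.5 and 5.72 to 7.24 CPM in PEO4. Within this list COL1A1 went from a mean of 22.1 to 2.80 CPM between untreated and 6 h PEO4, CALB2 went from 6.63 to 23.5 CPM in PEO1 BRCA+ and from 0.206 to 7.30 CPM in PEO4 between untreated and 2 h, and LUM and DCN stayed at a mean of 0.326 CPM or less in every condition. The part of these shifts in the results was not tested. In bulk RNA, fewer cells of a kind and less RNA per cell cannot be told apart.

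FZD6 and LRP5 stood above the other 8 genes in every condition once counts were divided by the summed exon length of each gene. In untreated PEO4 of the 18 libraries, FZD6 was at 51.9 ± 0.959 CPM per kilobase (SD, n = 3) and LRP5 at 47.5 ± 3.02. FZD2 followed at 11.3 ± 1.52, FZD1 at 9.18 ± 0.855, LRP6 at 6.41 ± 0.716 and FZD5 at 5.54 ± 0.521 CPM per kilobase, with LRP6 and FZD5 overlapping between libraries. The order ended with FZD7 at 3.11, FZD8 at 3.09, FZD4 at 2.53 and FZD3 at 2.46 CPM per kilobase, neighbours whose libraries overlapped. In untreated PEO1 BRCA+, LRP5 (35.5 to 39.4 CPM per kilobase) and FZD6 (35.1 to 38.4) could not be ordered beyond their spread, FZD2 came next at 14.2 ± 1.85, and FZD4 was lowest at 1.05 ± 0.194. The plot of CPM by library shows these levels for all 10 genes and 8 conditions.

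**Figure D1:**
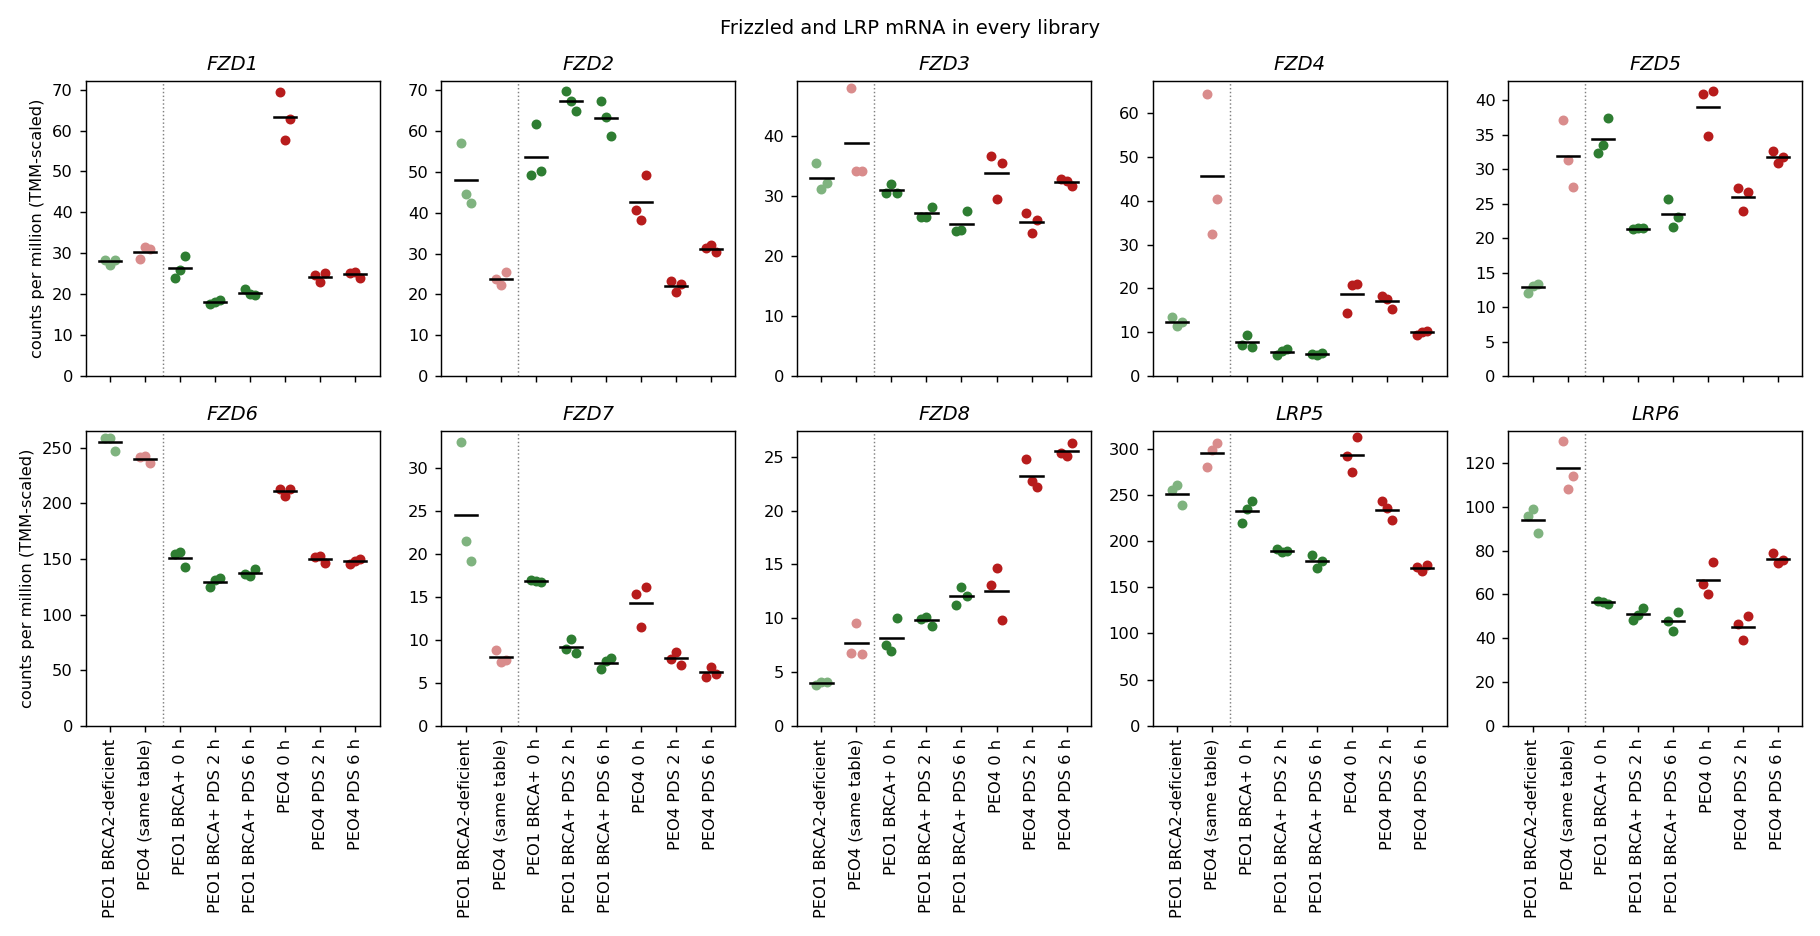
TMM-scaled CPM (vertical axes, from 0) of each of the 10 receptor genes in 24 libraries. Each point is a library, each black bar the mean of 3 libraries of a condition, and the dotted line separates the 2 tables, which were scaled separately and are not comparable with each other. FZD1 stands out in untreated PEO4 (57.8 to 69.5 CPM), FZD8 in PDS-treated PEO4 (22.2 to 26.3 CPM), and FZD7 is lower in every PDS library than in any untreated library of the same table.

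In the table of 18 libraries, the frizzled mRNA pool, taken as the sum of FZD1 to FZD8 in CPM per kilobase, was larger in untreated PEO4 (89.1 ± 3.42, SD, n = 3) than in untreated PEO1 BRCA+ (69.1 ± 2.77). It was not larger in PEO4 of the table of 6, where PEO4 (84.4 to 91.0) overlapped BRCA2-deficient PEO1 (87.3 to 97.1). After PDS the 2 lines lay close together, at 61.6 ± 1.45 in PEO4 and 62.4 ± 0.759 in PEO1 BRCA+ at 2 h, and at 64.2 ± 0.514 and 63.9 ± 0.734 at 6 h. FZD6 made up 51.0 to 68.4% of the pool on average in all 8 conditions. The other frizzleds were divided differently between the lines. FZD2 took 20.5 ± 1.84% of the pool in untreated PEO1 BRCA+, 28.6 ± 1.29% at 2 h and 26.2 ± 1.63% at 6 h of PDS, against 12.7 ± 1.31%, 9.53 ± 0.546% and 12.9 ± 0.394% in PEO4. FZD1 took 10.3 ± 0.752% in untreated PEO4 of the 18 libraries, and 5.72 ± 0.319% and 5.62 ± 0.182% after 2 and 6 h. FZD8 went from 3.49 ± 0.808% to 9.31 ± 0.333% and 9.84 ± 0.234% there. In PDS-treated PEO4, FZD8 thus held a larger share than FZD1 in every library, the opposite of untreated PEO4. That order under PDS depends on dividing by length. In CPM, FZD1 and FZD8 overlapped at 2 h (22.9 to 25.2 and 22.2 to 24.8) and at 6 h (24.1 to 25.4 and 25.1 to 26.3). These shares and sums are descriptions without a test.

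**Figure D2:**
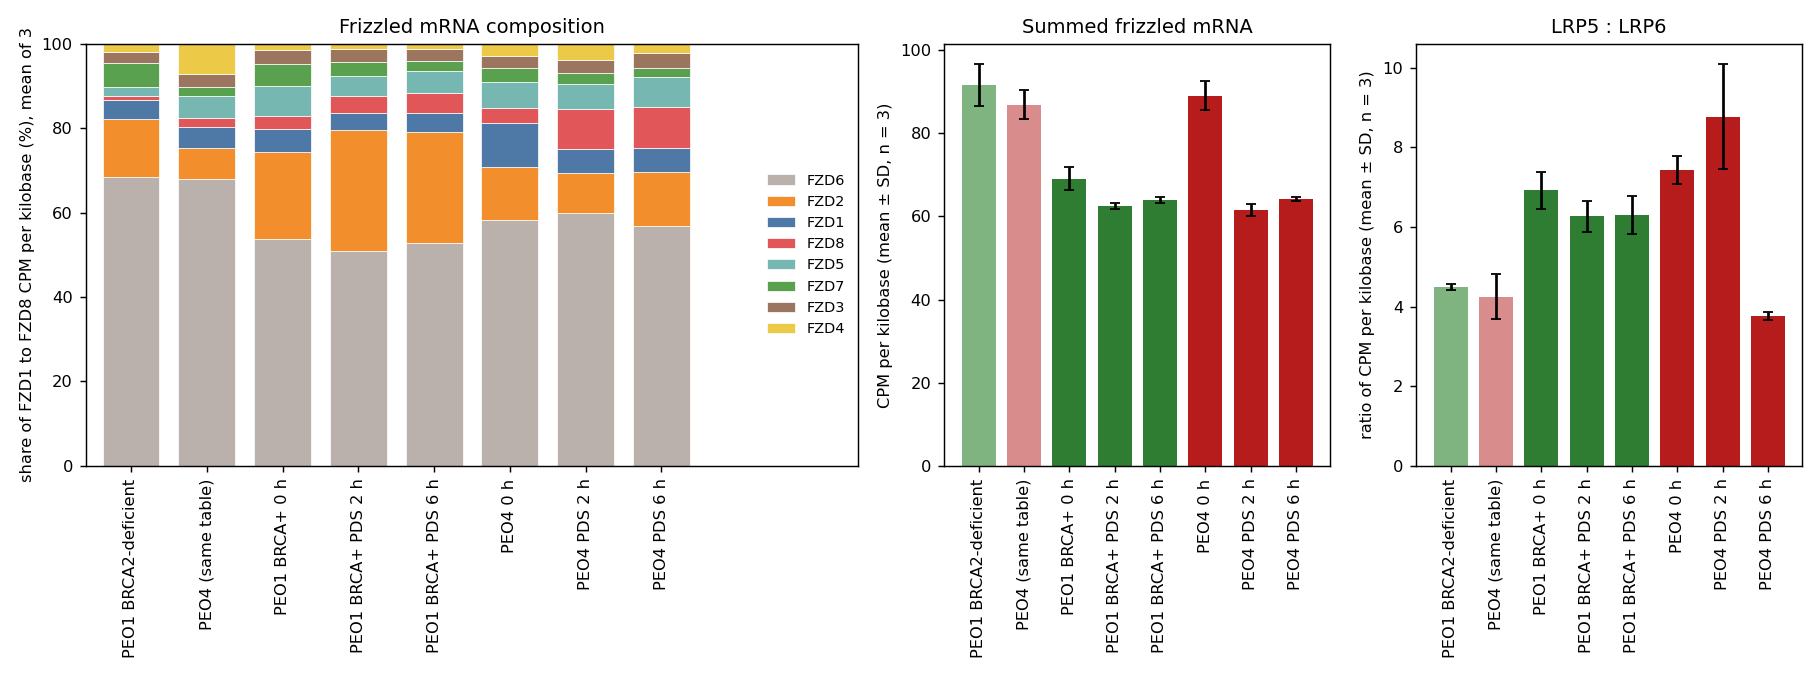
Left, the mean share (%) of FZD1 to FZD8 in their summed CPM per kilobase in each condition. Middle and right, the summed frizzled CPM per kilobase and the ratio of LRP5 to LRP6 in CPM per kilobase, as bars for the mean with SD (n = 3). The summed frizzled mRNA of PEO4 drops from 89.1 to 61.6 and 64.2 after PDS, close to PEO1 BRCA+, and the LRP5 to LRP6 ratio of PEO4 is lowest at 6 h (3.76).

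Sequences around the transcription starts are shown because PDS binds G4s, which form in runs of guanine. Windows of 300 bases (250 before and 50 after the start) were taken from RefSeq's table for GRCh38.p14 for FZD1, FZD4, FZD5, FZD8 and LRP5. No window was searched for FZD2, FZD3, FZD6, FZD7 and LRP6, so whether they hold the motifs below was not tested. The motif searched was 4 runs of GGG separated by loops of 1 to 7 bases on either strand, so that on the gene's opposite strand it reads as runs of CCC. It was found in FZD4 (2 matches on the gene's strand), FZD5 (2 on the gene's strand) and LRP5 (1 on each strand), and not in FZD1 and FZD8. Of 34943 promoters in the table, 24.81% hold it. CTTTGAA or CTTTGAT on either strand, the core bound by TCF/LEF factors, was in none of the 5 windows and is in 6.88% of all. FZD1 and FZD8, which in PEO4 had the furthest fall and rise after PDS of the 5, are printed with FZD5, which holds the motif, and capitals mark the motif. A match of letters is a description and does not show that a G4 forms there.
FZD1, chr7:91264183-91264482, plus strand, GC 65.67%: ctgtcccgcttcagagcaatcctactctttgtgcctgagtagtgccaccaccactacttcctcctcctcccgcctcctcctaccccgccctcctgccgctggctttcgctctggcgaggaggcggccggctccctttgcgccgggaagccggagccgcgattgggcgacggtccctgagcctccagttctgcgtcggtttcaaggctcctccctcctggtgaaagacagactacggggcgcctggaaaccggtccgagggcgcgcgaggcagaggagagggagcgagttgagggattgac
FZD5, chr2:207769857-207770156, minus strand, GC 77%: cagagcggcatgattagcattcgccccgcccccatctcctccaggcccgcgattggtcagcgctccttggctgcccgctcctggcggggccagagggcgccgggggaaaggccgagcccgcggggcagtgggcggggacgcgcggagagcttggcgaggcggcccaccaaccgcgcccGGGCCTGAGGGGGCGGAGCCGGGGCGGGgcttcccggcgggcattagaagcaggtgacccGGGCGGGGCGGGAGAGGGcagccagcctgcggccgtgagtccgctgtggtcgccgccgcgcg
FZD8, chr10:35642247-35642546, minus strand, GC 67%: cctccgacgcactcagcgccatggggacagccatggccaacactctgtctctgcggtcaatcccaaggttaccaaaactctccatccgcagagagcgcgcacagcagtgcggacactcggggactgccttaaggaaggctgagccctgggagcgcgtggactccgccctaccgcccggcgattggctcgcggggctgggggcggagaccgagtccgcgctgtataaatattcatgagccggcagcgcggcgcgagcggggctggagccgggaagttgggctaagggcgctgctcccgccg

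PEO4 was compared with each kind of untreated PEO1, BRCA2-deficient and BRCA+, to ask which receptors differ between the resistant and the sensitive line. The 2 pairs also differ in table, PEO4 libraries and added sodium pyruvate, so an effect of BRCA2 cannot be told apart from these. A gene passed where edgeR's quasi-likelihood test gave an adjusted p under 0.05, adjusted by Benjamini-Hochberg across the whole table, and was called where its log2 fold change also exceeded 1 in size. Relative to BRCA2-deficient PEO1, 2 of the 10 genes were called higher in PEO4 (FZD4 and FZD5), where 12.6% of all tested genes were called higher, and 2 were called lower (FZD2 and FZD7), against 13.1%. FZD8, LRP5 and LRP6 also passed, which made 5 higher and 2 lower, against 30.1% and 31.6% of all tested. FZD8 was higher with a log2 fold change that went past 1 without replicate 1 or 3 of PEO4 (1.04 and 1.03). FZD1, FZD3 and FZD6 did not pass. Relative to PEO1 BRCA+, 2 genes were called higher (FZD1 and FZD4), against 12.2% of all tested, and none lower, against 12.6%. FZD5, FZD6, FZD8, LRP5 and LRP6 passed higher by under 2-fold and FZD2 passed lower, against 34.0% and 34.6% of all tested passing higher and lower. FZD3 and FZD7 did not pass. Only FZD4 was called higher in both pairs, and the 2 pairs share no library. BRCA2 itself was at 8.24 ± 0.297 CPM in BRCA2-deficient PEO1 and 13.5 ± 2.44 in PEO4 of the same table, and at 8.25 ± 0.492 in PEO1 BRCA+ and 8.17 ± 0.987 in PEO4 of the other (SD, n = 3 each), and these levels do not check the reading frame.

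**Figure D3:**
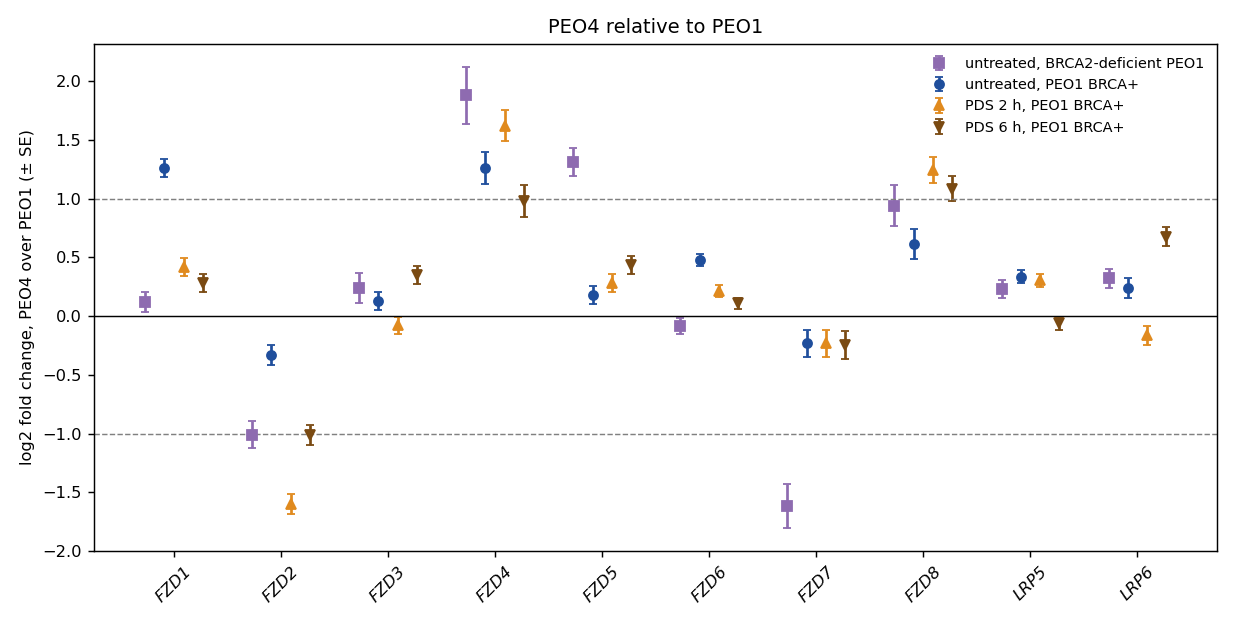
Log2 fold change of PEO4 over PEO1 (vertical axis) for each receptor gene, with the standard error of the fit as error bars and dashed lines at the threshold of 1 in size. Squares compare untreated PEO4 with untreated BRCA2-deficient PEO1. The other symbols compare PEO4 with PEO1 BRCA+, both untreated, both after 2 h or both after 6 h of PDS. FZD4 lies above 0 in all 4 comparisons (1.88, 1.26, 1.62 and 0.98) and FZD2 below 0 in all 4.

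PDS was added to test how the 2 lines respond to a G4-binding molecule. In PEO1 BRCA+ at 2 h, no member was called in either direction, where 1.18% of all tested genes were called higher and 6.39% lower. By adjusted p alone, 7 members were lower (FZD1, FZD3, FZD4, FZD5, FZD6, FZD7 and LRP5) and FZD2 was higher, against 26.2% and 26.4% of all tested. At 6 h FZD7 was called lower, against 6.83% of all tested, none was called higher, against 1.29%, and all 10 passed, 8 lower and FZD2 and FZD8 higher, against 26.0% and 27.0%. The FZD7 fall at 2 h was past the threshold of the call with library totals (-1.02). Between 2 and 6 h 0 of the 10 passed in this line by edgeR or by DESeq2, and 3 (FZD1, FZD7 and FZD8) had an unadjusted p under 0.05 by edgeR, where 3.96% of all tested passed higher and 2.98% lower, and 0.0705% and 0.0999% were called. FZD7 passed there without replicate 2 of untreated PEO4 (adjusted p = 0.039), and FZD7 and FZD8 passed with only the compared groups in the fit (adjusted p = 0.035 and 0.023). In PEO4 at 2 h, FZD1 was called lower, against 11% of all tested, and none was called higher, against 6.4%, while 8 passed lower, FZD8 passed higher and FZD4 did not pass, against 32% passing lower and 33.3% higher. Without replicate 2 of untreated PEO4, FZD2 (-1.02), FZD7 (-1.0036) and FZD8 (1.02) were called too. At 6 h FZD1 and FZD7 were called lower, against 16.3%, and FZD8 higher, against 6.26%, and in all 7 passed lower, 2 higher (FZD8 and LRP6) and FZD3 did not pass, against 35.2% passing lower and 34.6% higher. From 2 to 6 h in PEO4, none was called (2.27% of all tested were called higher and 9.71% lower), and 4 passed higher (FZD2, FZD3, FZD5 and LRP6) and 3 lower (FZD4, FZD7 and LRP5), against 28.9% and 31.3%. The FZD7 value there (-0.34, edgeR adjusted p = 0.017) did not pass without replicate 2 of 2 h PEO4 (-0.26) or replicate 1 or 3 of 6 h PEO4 (-0.27 and -0.32). The comparisons of 2 h and of 6 h share the untreated libraries of each line. Between the lines under PDS, FZD4 and FZD8 were called higher in PEO4 at 2 h, against 13.9% of all tested, and FZD2 lower, against 12.6%. In all 6 passed higher and 1 lower there, against 37% and 35.8%. At 6 h FZD8 was called higher, against 9.52%, and FZD2 lower, against 13.5%, and again 6 passed higher and 1 lower, against 34.0% and 34.7%. The responses of the 2 lines differed for 1 gene with a higher and 4 with a lower value in PEO4 at 2 h, against 19.3% and 18% of all tested, and for 2 and 4 at 6 h, against 24.4% and 23.0%. None of the 10 was called with a higher response in PEO4 at 2 h, against 6.1%, and none in either direction at 6 h, against 5.42% and 9.34%. With library totals as the scaling, the log2 fold changes of all genes had a median between -0.13 and -0.19 after PDS, and the split of passing genes moved, at 6 h in PEO4 from 5883 higher and 5998 lower to 4519 and 7400, and at 2 h in PEO1 BRCA+ from 4489 and 4458 to 2838 and 6342.

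**Figure D4:**
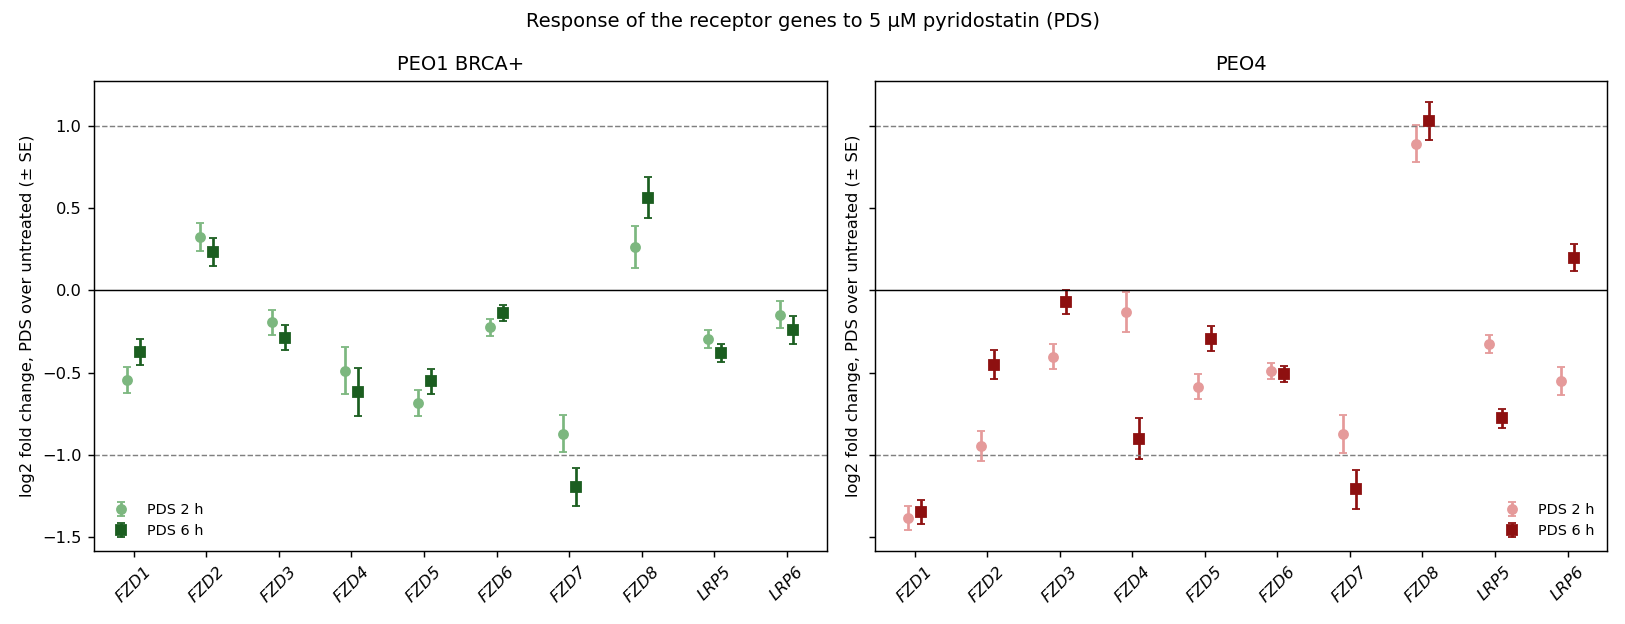
Log2 fold change of PDS-treated over untreated cells (vertical axes) for each receptor gene in PEO1 BRCA+ (left) and PEO4 (right), with standard errors, dashed lines at 1 in size, circles for 2 h and squares for 6 h. FZD7 falls to nearly the same extent in both lines (log2 fold change at 6 h of -1.20 and -1.21), FZD2 lies above 0 in PEO1 BRCA+ and below 0 in PEO4, and FZD1 falls most in PEO4 (-1.38 and -1.35).

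FZD1, FZD2 and FZD7 form a closely related subfamily, each encoded in a single exon and known mainly as receptors for beta-catenin signalling. FZD1 lies on chromosome 7 of GRCh38 (chr7:91264433-91271326, plus strand). In untreated PEO4 of the 18 libraries it was at 69.5, 57.8 and 62.7 CPM in replicates 1 to 3, and in untreated PEO1 BRCA+ at 23.9, 25.9 and 29.5 CPM. Each PEO4 library was thus well above each PEO1 BRCA+ library, a log2 fold change of 1.26 (standard error 0.0755, edgeR adjusted p = 1.9e-13). After PDS, FZD1 in PEO4 was at 24.7, 22.9 and 25.2 CPM at 2 h and 25.2, 25.4 and 24.1 CPM at 6 h. PEO1 BRCA+ held 17.6, 18.2 and 18.7 CPM at 2 h and 21.3, 20.1 and 19.8 CPM at 6 h. The transcript fell in both lines, with log2 fold changes in PEO4 of -1.38 at 2 h and -1.35 at 6 h (edgeR adjusted p = 6e-14 and 7e-14) against -0.54 and -0.37 in PEO1 BRCA+ (edgeR adjusted p = 2.9e-06 and 0.00026). PEO4 therefore lost more than PEO1 BRCA+, by 0.84 on the log2 scale at 2 h and 0.98 at 6 h (edgeR interaction adjusted p = 1.1e-06 and 8e-08), the latter by 1.06 and 1.04, past the threshold of the call, without replicate 3 of untreated PEO1 BRCA+ or replicate 2 of untreated PEO4, and PDS-treated PEO4 overlapped untreated PEO1 BRCA+ in FZD1 level. FZD1 did not pass between PEO4 and BRCA2-deficient PEO1, where the libraries held 28.7 to 31.6 and 27.2 to 28.5 CPM and the 95% interval of the log2 difference ran from -0.05 to 0.29 (edgeR adjusted p = 0.25).

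FZD2 (chr17:44557484-44561262, plus strand) moved in opposite directions in the 2 lines under PDS. PEO1 BRCA+ held 49.2, 61.8 and 50.2 CPM untreated, 69.8, 67.4 and 64.9 CPM at 2 h and 67.4, 63.4 and 58.9 CPM at 6 h. PEO4 held 40.8, 38.2 and 49.2 CPM untreated, 23.2, 20.6 and 22.7 CPM at 2 h and 31.4, 32.04 and 30.3 CPM at 6 h. At 2 h every PEO1 BRCA+ library was above all untreated ones and every PEO4 library below. The log2 fold change was 0.32 in PEO1 BRCA+ and -0.95 in PEO4 (edgeR adjusted p = 0.0025 and 2.6e-09), a difference between the responses of -1.27 (standard error 0.123, edgeR adjusted p = 2.4e-08), which was the only called interaction among the 10 genes, against 4.92% of all tested genes called lower in that contrast. At 6 h the difference was -0.69 (edgeR adjusted p = 6.7e-05), with FZD2 in PEO4 having risen again from 2 h by 0.49 on the log2 scale (edgeR adjusted p = 4e-05). The rise in PEO1 BRCA+ depends on scaling, since with library totals it was 0.18 at 2 h and 0.09 at 6 h (edgeR adjusted p = 0.11 and 0.44). At 6 h it also did not pass with upper-quartile scaling (0.15, edgeR adjusted p = 0.16). The same held without replicate 1 or 3 of untreated (0.18 and 0.20) or replicate 1 of 6 h PEO1 BRCA+ (0.19). Between the lines, FZD2 was lower in PEO4 by 0.33 on the log2 scale untreated (edgeR adjusted p = 0.0018), 1.60 at 2 h (adjusted p = 5.3e-14) and 1.02 at 6 h of PDS (adjusted p = 2e-10), the last at 0.97 and 0.99 without replicate 1 of 6 h PEO1 BRCA+ or replicate 3 of 6 h PEO4. Against BRCA2-deficient PEO1, with 57.2, 44.6 and 42.5 CPM, PEO4 held 23.8, 22.3 and 25.6 CPM, a log2 fold change of -1.01 (standard error 0.115, edgeR adjusted p = 8.6e-06) that sits at the threshold of the call and was -0.87 without replicate 1 of PEO1 and -0.9997 or -0.96 without replicate 1 or 2 of PEO4.

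FZD7 (chr2:202033855-202038441, plus strand) fell after PDS in both lines alike. It was at 16.9, 16.9 and 16.7 CPM in untreated PEO1 BRCA+ and at 9.0, 10.1 and 8.4 CPM at 2 h and 6.6, 7.5 and 7.9 CPM at 6 h. PEO4 held 15.3, 11.5 and 16.1 CPM untreated, 7.8, 8.6 and 7.1 CPM at 2 h and 5.7, 6.8 and 6.1 CPM at 6 h. No treated library of either line reached the lowest untreated one. At 2 h the log2 fold change was -0.87 in each line (edgeR adjusted p = 6.2e-07 and 4e-07), and at 6 h it was -1.20 in PEO1 BRCA+ and -1.21 in PEO4 (edgeR adjusted p = 6.1e-09 and 2e-09), which made FZD7 the only one of the 10 called in both lines. The responses differed by 0.00 at 2 h, with a 95% interval from -0.32 to 0.32, and by -0.01 at 6 h, from -0.34 to 0.31. FZD7 was 3.07-fold lower in PEO4 than in BRCA2-deficient PEO1 (log2 fold change -1.62, standard error 0.188, edgeR adjusted p = 2.5e-05), with 8.8, 7.5 and 7.7 CPM against 33.0, 21.5 and 19.1 CPM. Against PEO1 BRCA+ it did not pass (log2 fold change -0.23, edgeR adjusted p = 0.07), though without replicate 3 of untreated PEO4 it did (adjusted p = 0.02).

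FZD5 and FZD8 are a second subfamily of beta-catenin receptors, FZD5 known for its part in intestinal and eye development. FZD8 (chr10:35638247-35642296, minus strand, 1 exon) was the member that rose most after PDS. PEO4 held 13.1, 14.7 and 9.8 CPM untreated, 24.8, 22.7 and 22.2 CPM at 2 h and 25.4, 25.1 and 26.3 CPM at 6 h, so every treated library exceeded every untreated one. The log2 fold change was 0.89 at 2 h and 1.03 at 6 h (edgeR adjusted p = 2.3e-07 and 1.6e-08). The second value is at the threshold of the call and was 0.87 with library totals, 0.92 with upper-quartile scaling and 0.89 without replicate 3 of untreated PEO4. PEO1 BRCA+ held 7.5, 6.9 and 10.01 CPM untreated, 9.9, 10.1 and 9.3 CPM at 2 h and 11.3, 12.9 and 12.1 CPM at 6 h, and the log2 fold change was 0.26 at 2 h (edgeR adjusted p = 0.081) and 0.56 at 6 h (edgeR adjusted p = 0.00045). The 2 h value passed without replicate 3 of untreated PEO1 BRCA+ (adjusted p = 0.0063) and without replicate 2 or 3 of untreated PEO4 (adjusted p = 0.044 and 0.036). The larger rise in PEO4 passed at 2 h (difference 0.63, standard error 0.169, edgeR adjusted p = 0.005) and at 6 h (0.47, edgeR adjusted p = 0.025), but at 6 h not without replicate 3 of untreated PEO1 BRCA+ (0.29, adjusted p = 0.16), replicate 3 of untreated PEO4 (0.32, adjusted p = 0.083), replicate 1 of 6 h PEO1 BRCA+ (0.42, adjusted p = 0.063) or replicate 3 of 6 h PEO4 (0.44, adjusted p = 0.0504). Between the lines FZD8 was higher in PEO4 by 0.62 on the log2 scale untreated, with overlapping libraries, and by 1.25 and 1.08 after 2 and 6 h of PDS (edgeR adjusted p = 0.00015, 3.1e-10 and 3.2e-09). It was also higher in PEO4 than in BRCA2-deficient PEO1, at 6.6 to 9.6 against 3.8 to 4.1 CPM (log2 fold change 0.94, edgeR adjusted p = 0.00055). MIR4683 is annotated inside FZD8 on the same strand and was listed at 0.58 to 2.56 CPM in the table of 18 libraries.

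FZD5 (chr2:207762598-207769906, minus strand, 2 exons of which 1 is coding) differed between the lines chiefly in the pair with BRCA2-deficient PEO1. PEO4 held 37.2, 31.3 and 27.4 CPM there and PEO1 12.1, 13.1 and 13.4 CPM, a 2.49-fold difference (log2 fold change 1.31, standard error 0.119, edgeR adjusted p = 1.1e-06). In the other pair, PEO4 with 40.9, 34.8 and 41.3 CPM overlapped PEO1 BRCA+ with 32.4, 33.5 and 37.4 CPM, and the log2 fold change of 0.18 passed narrowly (edgeR adjusted p = 0.044). That pass was lost with DESeq2 (adjusted p = 0.053), without a filter on low counts (adjusted p = 0.069) and with only the compared groups in the fit (adjusted p = 0.095). It was also lost without replicate 1 or 2 of untreated PEO1 BRCA+ (adjusted p = 0.17 and 0.11), replicate 1 or 3 of untreated PEO4 (adjusted p = 0.14 and 0.16) or replicate 2 of 2 h PEO1 BRCA+ (adjusted p = 0.0503). PDS lowered FZD5 in both lines, to 21.3 to 21.5 CPM at 2 h and 21.7 to 25.7 CPM at 6 h in PEO1 BRCA+ (log2 fold changes -0.69 and -0.55, edgeR adjusted p = 9.3e-08 and 1.9e-06). In PEO4 it was lowered to 23.9 to 27.3 CPM at 2 h (log2 fold change -0.59, edgeR adjusted p = 3.6e-07) and was at 31.0 to 32.7 CPM at 6 h (-0.30, edgeR adjusted p = 0.0014), which was 0.29 above 2 h on the log2 scale (edgeR adjusted p = 0.002). FZD5 and FZD8, of the same subfamily, thus moved in opposite directions in PEO4.

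FZD4, which besides WNTs binds the ligand norrin and works in retinal vessels with LRP5 and the tetraspanin TSPAN12, lies on chromosome 11 (chr11:86945679-86955395, minus strand, 2 exons). Untreated PEO4 held 14.5, 20.7 and 20.9 CPM against 7.1, 9.4 and 6.7 CPM in PEO1 BRCA+, a log2 fold change of 1.26 (standard error 0.135, edgeR adjusted p = 1e-08). In the other pair the libraries were further apart, at 64.3, 32.4 and 40.3 CPM in PEO4 and 13.6, 11.5 and 12.3 CPM in BRCA2-deficient PEO1 (log2 fold change 1.88, standard error 0.241, edgeR adjusted p = 0.00031). Replicate 1 of PEO4 was the highest there, and without it the log2 fold change was 1.55. FZD4 overlaps PRSS23 on the opposite strand, and the sources used here do not state whether counting used strand. PRSS23, at 376 to 532 CPM in BRCA2-deficient PEO1 and 49.5 to 81.6 CPM in PEO4, was lower in PEO4 (log2 fold change -2.64, edgeR adjusted p = 5.2e-05), the direction opposite to FZD4. Against untreated PEO1 BRCA+ it did not pass (-0.38, edgeR adjusted p = 0.085). Between the lines under PDS, PRSS23 lay on the same side as FZD4, at 0.42 (2 h) and 0.39 (6 h) (edgeR adjusted p = 0.05 and 0.067). Its part in the FZD4 counts was not tested. In PEO4 FZD4 was little changed at 2 h of PDS (18.3, 17.5 and 15.4 CPM, log2 fold change -0.13 with a 95% interval from -0.37 to 0.11, edgeR adjusted p = 0.36), though it passed without replicate 1 of untreated PEO4 (adjusted p = 0.033). At 6 h it was at 9.4, 10.1 and 10.4 CPM, below every untreated and every 2 h library (log2 fold changes -0.90 and -0.77, edgeR adjusted p = 8e-07 and 8.4e-06), and the first went past the threshold of the call without replicate 1 of untreated PEO4 (-1.05), with library totals (-1.06) and with upper-quartile scaling (-1.02). PEO1 BRCA+ went from 6.7 to 9.4 CPM to 4.8 to 6.1 CPM at 2 h and 4.9 to 5.3 CPM at 6 h (log2 fold changes -0.49 and -0.62, edgeR adjusted p = 0.0061 and 0.00094), the first not passing without replicate 2 of untreated PEO1 BRCA+ (-0.31, adjusted p = 0.095). PRSS23 rose with PDS in PEO4 (1.23 and 1.36 on the log2 scale at 2 and 6 h, edgeR adjusted p = 5.1e-05 and 1.6e-05). Between the lines FZD4 was higher in PEO4 by 1.62 at 2 h and 0.98 at 6 h of PDS (edgeR adjusted p = 5.1e-11 and 7.2e-07), and the latter was 1.01 and 1.02, past the threshold of the call, without replicate 3 of 6 h PEO1 BRCA+ or replicate 1 of 6 h PEO4.

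FZD3 and FZD6, both on chromosome 8, are receptors known chiefly for planar cell polarity, FZD3 in axon guidance and FZD6 in the patterning of hair. FZD6 was higher in untreated PEO4 (213, 206 and 213 CPM) than in PEO1 BRCA+ (155, 156 and 143 CPM), with no overlap (log2 fold change 0.48, standard error 0.0501, edgeR adjusted p = 5.9e-09). Under PDS it fell in PEO4 to 146 to 152 CPM at 2 h and 146 to 150 CPM at 6 h (log2 fold changes -0.49 and -0.51, edgeR adjusted p = 5.3e-09 and 1.9e-09). The fall in PEO1 BRCA+ was smaller, to 124 to 133 and 135 to 141 CPM (-0.22 and -0.14, edgeR adjusted p = 0.00055 and 0.024), and the responses differed by -0.27 at 2 h and -0.37 at 6 h (edgeR adjusted p = 0.0043 and 0.00012). The 6 h fall in PEO1 BRCA+ did not pass without replicate 1 or 2 of untreated (-0.11 and -0.10) or of 6 h PEO1 BRCA+ (-0.13 and -0.11) or without a filter on low counts (-0.12). Against BRCA2-deficient PEO1 FZD6 did not pass, with 236 to 242 CPM in PEO4 and 247 to 259 CPM in PEO1 (log2 fold change -0.09, 95% interval -0.22 to 0.05, edgeR adjusted p = 0.29).

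FZD3 differed little throughout. It passed in neither untreated pair (log2 fold changes 0.24 and 0.13, edgeR adjusted p = 0.13 and 0.14), although without replicate 2 of untreated PEO4 it passed in the second (adjusted p = 0.01). In PEO4 it went from 29.5 to 36.6 CPM untreated to 23.8 to 27.1 CPM at 2 h (log2 fold change -0.40, edgeR adjusted p = 5.1e-05) and was at 31.6 to 32.8 CPM at 6 h (-0.07, edgeR adjusted p = 0.41), though lower than untreated with library totals (adjusted p = 0.01) and upper-quartile scaling (adjusted p = 0.031). In PEO1 BRCA+ it went from 30.4 to 32.02 CPM to 26.5 to 28.3 and 24.2 to 27.6 CPM (-0.19 and -0.29, edgeR adjusted p = 0.036 and 0.0026). The 2 h value in this line did not pass without a filter on low counts (-0.18, adjusted p = 0.071) or when any 1 of 10 libraries was left out, with adjusted p from 0.051 to 0.14. These were each replicate of untreated and replicates 1 and 2 of 2 h PEO1 BRCA+, replicate 2 of 6 h PEO1 BRCA+, replicate 3 of 2 h PEO4 and each replicate of 6 h PEO4.

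LRP5 and LRP6 are single-pass co-receptors whose cytoplasmic tails are phosphorylated on WNT binding and capture AXIN, and LRP5 is known for its effect on bone mass. Each has 23 exons, LRP5 on chr11:68312591-68449275 (plus strand) and LRP6 on chr12:12116025-12267044 (minus strand). LRP5 had the higher CPM per kilobase in every condition. It was higher in untreated PEO4 (293, 275 and 313 CPM) than in PEO1 BRCA+ (220, 234 and 244 CPM), with no overlap (log2 fold change 0.34, standard error 0.0559, edgeR adjusted p = 9.4e-06). PDS lowered LRP5 in both lines and further in PEO4. In PEO4 it reached 223 to 243 CPM at 2 h and 167 to 174 CPM at 6 h (log2 fold changes -0.33 and -0.78, edgeR adjusted p = 1.6e-05 and 8.6e-12), and in PEO1 BRCA+ 188 to 191 and 172 to 185 CPM (-0.30 and -0.38, edgeR adjusted p = 9.6e-05 and 3.5e-06). The responses differed at 6 h (-0.40, edgeR adjusted p = 0.0002) and did not pass at 2 h (-0.03, 95% interval -0.19 to 0.12, edgeR adjusted p = 0.79). After 6 h of PDS the line difference in LRP5 no longer passed (log2 fold change -0.06, 95% interval -0.17 to 0.05, edgeR adjusted p = 0.33). Against BRCA2-deficient PEO1 LRP5 was higher in PEO4 by 0.23 on the log2 scale (280 to 306 against 239 to 260 CPM, edgeR adjusted p = 0.017), which did not pass without replicate 3 of either line (0.19 and 0.21, adjusted p = 0.097 and 0.061).

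LRP6 dipped and returned in PEO4. It was at 64.6, 60.1 and 74.6 CPM untreated, 46.6, 39.2 and 50.1 CPM at 2 h and 78.8, 74.5 and 75.5 CPM at 6 h. Every 2 h library was below, and the 6 h libraries overlapped the highest of the untreated ones. The log2 fold change was -0.55 at 2 h (edgeR adjusted p = 3.4e-06), 0.75 from 2 to 6 h (standard error 0.0814, edgeR adjusted p = 4.5e-08) and 0.20 from untreated to 6 h (edgeR adjusted p = 0.035). The last did not pass under any of the other scalings (0.04 to 0.18) or without replicate 1 or 2 of untreated PEO4 (0.18 and 0.14) or replicate 1 of 6 h PEO4 (0.18). In PEO1 BRCA+ the libraries held 55.4 to 57.2 CPM untreated, 48.1 to 53.8 CPM at 2 h and 43.4 to 52.0 CPM at 6 h (log2 fold changes -0.15 and -0.24, edgeR adjusted p = 0.14 and 0.018). The first passed with library totals (adjusted p = 0.0063) and upper-quartile scaling (0.023). The second did not pass without replicate 1 or 2 of untreated (-0.22 and -0.23) or replicate 2 of 6 h PEO1 BRCA+ (-0.17). The responses of the 2 lines differed by -0.40 at 2 h and, in the other direction, by 0.44 at 6 h (edgeR adjusted p = 0.0091 and 0.0034). The ratio of LRP5 to LRP6 in CPM per kilobase was 7.43 ± 0.355, 8.78 ± 1.32 and 3.76 ± 0.111 in PEO4 at 0, 2 and 6 h (SD, n = 3 each), against 6.92 ± 0.466, 6.27 ± 0.395 and 6.30 ± 0.469 in PEO1 BRCA+. Relative to untreated, the low 6 h ratio in PEO4 went mostly with the fall of LRP5 (log2 fold change -0.78), beside 0.20 for LRP6. From 2 to 6 h the log2 fold changes were 0.75 for LRP6 and -0.45 for LRP5. LRP6 was higher in untreated PEO4 than in either PEO1, by 0.24 over PEO1 BRCA+ (edgeR adjusted p = 0.015, not passing without replicate 3 of untreated PEO4, 0.15 and adjusted p = 0.13) and by 0.32 over BRCA2-deficient PEO1 (edgeR adjusted p = 0.0052). At 6 h of PDS LRP6 was higher in PEO4 by 0.68 (edgeR adjusted p = 9.6e-08). It overlaps BCL2L14 on the opposite strand, which was at no more than 1.78 CPM in any library.

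Across the 18 libraries, FZD1 and FZD6 followed each other most closely of the 10 genes (Pearson r = 0.97 of log2 CPM), and FZD2 and FZD8 ran most nearly opposite (r = -0.85). These libraries fall into 6 conditions of 2 lines, share their scaling and differ in depth with treatment, so the values describe the pattern only. Of 9613 genes with a mean log2 CPM of at least 3, the gene most like each member by the same measure was CXADR for FZD1 (r = 0.98), ARHGEF28 for FZD2 (0.98), GYS1 for FZD3 (0.94), CILK1 for FZD4 (0.98), MEX3D for FZD5 (0.97), FOSL2 for FZD6 (0.98), SHROOM2 for FZD7 (0.94), USF2 for FZD8 (0.98), TBC1D17 for LRP5 (0.98) and ZMYM4 for LRP6 (0.95).

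Of 10 WNT receptors and co-receptors outside the 10 members, 9 were tested. In untreated PEO4 relative to PEO1 BRCA+, 2 were called higher and 3 lower, against 12.2% and 12.6% of all tested genes, with a median log2 fold change of -0.69, where the median of all tested genes was 0.00. TSPAN12, the partner of FZD4, was at 45.2 ± 8.36 CPM in PEO4 and 4.12 ± 0.442 in PEO1 BRCA+ (SD, n = 3), 10.98-fold higher (edgeR adjusted p = 2.6e-18). FZD10, a frizzled of the FZD4 branch, had between 2 and 3 counts per library in untreated PEO4 and 123 to 252 in PEO1 BRCA+, at least 50.8-fold lower against a floor of 3 counts per library (edgeR adjusted p = 4.5e-14). At 6 h of PDS 2 of the 9 were called lower in PEO4, against 16.3% of all tested, and none in PEO1 BRCA+, against 6.83%. These were ROR1 (log2 fold change -1.79, edgeR adjusted p = 6.4e-12) and FZD10, which was at the floor there with 0 to 1 counts per library against 2 to 3 untreated.

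Frizzled proteins are removed from the membrane by the ubiquitin ligases ZNRF3 and RNF43, which R-spondins block through LGR receptors. Of 11 such genes 6 were tested in the table of 18 libraries. In untreated PEO4, LGR6 (92.2 ± 40.9 against 13.96 ± 1.71 CPM, edgeR adjusted p = 7.9e-07) and ZNRF3 were called higher and RSPO4 lower than in PEO1 BRCA+. Of all tested genes, 12.2% were called higher and 12.6% lower there. After 6 h of PDS, 4 of the 6 passed lower in each line, against 26.0% of all tested in PEO1 BRCA+ and 35.2% in PEO4, with a median log2 fold change of -0.35 in PEO1 BRCA+ and -0.58 in PEO4, where the medians of all tested genes were -0.03 in both. LGR6 fell to 3.58 ± 0.312 CPM in PEO4 (log2 fold change -4.69, edgeR adjusted p = 9.2e-09), and RNF43 to 1.27 ± 0.195 CPM in PEO1 BRCA+ (-1.12, edgeR adjusted p = 7.6e-05).

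Of 16 tested WNT ligands and genes of ligand secretion, 3 were called higher and 5 lower in untreated PEO4 than in PEO1 BRCA+. Of all tested genes, 12.2% and 12.6% were. WNT11, a ligand of the planar polarity branch, was 94.9-fold higher at 73.0 ± 18.2 CPM, and WNT6 47.8-fold higher at 68.6 ± 18 CPM (edgeR adjusted p = 1.6e-12 and 1.3e-10). After 6 h of PDS 10 of the 16 were called lower and 2 higher in PEO4, and 2 lower and 1 higher in PEO1 BRCA+. Of all tested genes, 16.3% were called lower and 6.26% higher in PEO4, and 6.83% and 1.29% in PEO1 BRCA+. The medians of the list were -1.54 and -0.49 on the log2 scale, where those of all tested genes were -0.03 in both lines. WNT6 and WNT5A were called lower in both lines, to 3.46 and 0.726 CPM in PEO4 and to 0.305 and 1.86 CPM in PEO1 BRCA+. Of 11 tested secreted and membrane antagonists, 4 were called higher and 2 lower in untreated PEO4 than in PEO1 BRCA+, against 12.2% and 12.6%. APCDD1 was higher by the widest margin (225 ± 52.8 against 0.933 ± 0.251 CPM, edgeR adjusted p = 1.6e-12). SHISA2, with 0 to 4 counts in PEO4 against 102 to 128 in PEO1 BRCA+, was lower (edgeR adjusted p = 6.6e-14). At 6 h of PDS 6 were called lower and 2 higher in PEO4, against 16.3% and 6.26% of all tested. None was called in PEO1 BRCA+, against 6.83% lower and 1.29% higher, and 1 of the 11 passed, lower, against 26.0% of all tested.

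Of 13 tested genes for frizzled and LRP maturation, endocytosis and phosphorylation, 1 was called in untreated PEO4 relative to PEO1 BRCA+. It was CAPRIN2, higher (log2 fold change 1.19, edgeR adjusted p = 2.6e-07), where 12.2% of all tested were called higher and 12.6% lower. After 6 h of PDS in PEO4 1 was called, lower, against 16.3% of all tested. This was CDK14, the kinase of LRP6 in dividing cells, which fell from 39.1 ± 7.42 to 15.7 ± 1.01 CPM (log2 fold change -1.32, edgeR adjusted p = 1.7e-10). Of 15 dishevelled and destruction complex genes, AXIN2 and APC2 were called lower at 6 h of PDS in PEO4, against 16.3% of all tested. By adjusted p alone more passed higher (8) than lower (4) there, against 34.6% and 35.2% of all tested. The median log2 fold change of the list was 0.17, where that of all tested genes was -0.03. None was called in PEO1 BRCA+, against 6.83% lower and 1.29% higher. Of 15 tested TCF/LEF factors and common targets, 3 were called higher and 3 lower in untreated PEO4 than in PEO1 BRCA+, against 12.2% and 12.6% of all tested. TNFRSF19 differed furthest, with 2 to 3 counts per library in PEO4 against 60 to 92. It was at least 23.3-fold lower against a floor of 3 counts per library (edgeR adjusted p = 3.8e-11). After 6 h of PDS, 5 of the 15 were called lower in PEO4, against 16.3% of all tested, and 3 in PEO1 BRCA+, against 6.83%. None was called higher, against 6.26% and 1.29%, with medians of -0.61 and -0.28 on the log2 scale. AXIN2, a feedback inhibitor induced by beta-catenin, was at 26.2 ± 13.8 CPM in untreated PEO4, 0.957 ± 0.05 in untreated PEO1 BRCA+ and 1.24 ± 0.268 in PEO4 after 6 h (edgeR adjusted p = 1.9e-07 for the lines and 1.4e-07 for PDS). NKD1, which binds dishevelled, fell from 8.40 ± 4.20 to 1.32 ± 0.131 CPM in PEO4 over the same interval (edgeR adjusted p = 1.7e-07). The lists were written with earlier results of these data known, so their counts describe these libraries and are not independent evidence of a direction.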

How the data were processed

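Polyadenylated RNA was sequenced in paired ends, and the authors deposited gene-level read counts made, per the labels and the study's methods, with FastQC, fastp, STAR on hg38 and featureCounts. Their versions, the annotation and the strand setting are not given in the sources used here. The deposited counts are not normalized, sum to 18699929 to 63882077 per library. From them, each table was fitted on its own over all its libraries with edgeR 4.0.16 in R 4.3.3 (TMM scaling, filterByExpr with a minimum count of 10 and a minimum total of 15, robust quasi-likelihood test without a replicate block), leaving 15882 and 17020 genes, and p-values were Benjamini-Hochberg adjusted over these. Standard errors and 95% intervals are Wald values of the fit. Interactions compare the responses of the 2 lines. Levels are TMM-scaled CPM, divided by summed exon length in GENCODE models of GRCh38 where genes are compared. Other settings tried were upper-quartile scaling, scaling by totals or by DESeq2's size factors, DESeq2 1.42.0, other filters and call rules, a fit of the compared groups alone, a replicate block and leaving out each of the 24 libraries.

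On simulated counts for PEO4 against BRCA2-deficient PEO1 (15697 genes), 100 of 100 genes changed by 1.5 on the log2 scale and 100 of 100 changed by 2.5 were recovered with 0 false calls. For PEO4 at 6 h of PDS (16609 genes) the same shares were recovered with 1 false call. Every simulated gene had the same dispersion, and only genes well above low counts were changed, by sizes past the threshold of the call. Such changes are easily recovered, so the simulation checks that the fit runs and does not bear on calls near the threshold. No 2 replicates of a condition agreed within sampling noise. Unnamed or unreadable lines (2 and 1) were left out, and 0 columns of values went unused.

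The members and gene lists were chosen with earlier results of these data known. Besides the 10 members, genes were named by rule: in each list, for PEO4 over PEO1 BRCA+ and for 6 h of PDS in each line, the 2 called genes with the furthest log2 fold change, mean log2 CPM not under 0 and libraries that do not overlap, and the gene with the highest Pearson r to each member. ZNRF3, PRSS23, BCL2L14 and MIR4683 were named after their values were seen.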

Additional observations from a re-analysis of the deposited data

Results flagged for a closer look

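The response to PDS differed between PEO4 and PEO1 BRCA+ for 5 of the 10 genes at 2 h and 6 at 6 h by the edgeR interaction test. Of all tested genes, 19.3% passed with a higher and 18% with a lower response in PEO4 at 2 h, and 24.4% and 23.0% at 6 h. Values are the log2 response of PEO4 minus that of PEO1 BRCA+. At 2 h the difference was -0.84 for FZD1, -1.27 for FZD2, -0.27 for FZD6, 0.63 for FZD8 and -0.40 for LRP6. At 6 h it was -0.98 for FZD1, -0.69 for FZD2, -0.37 for FZD6, 0.47 for FZD8, -0.40 for LRP5 and 0.44 for LRP6. FZD2 moved in opposite directions in the 2 lines, though its rise in PEO1 BRCA+ did not pass with library totals at either time. The LRP6 difference had opposite signs at 2 and 6 h. Both times share the untreated libraries.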

How the results depend on the processing

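No member changed direction with a call under any alternative run. Over single libraries left out, 1974 member values kept their side of an adjusted p of 0.05, 27 newly passed and 39 no longer passed, and over the other alternatives 919, 17 and 14 did. With adjusted p alone, the members called higher and lower were 5 and 2 for PEO4 over BRCA2-deficient PEO1, 7 and 1 over untreated PEO1 BRCA+, 1 and 7 at 2 h and 2 and 8 at 6 h of PDS in PEO1 BRCA+, 1 and 8 at 2 h, 2 and 7 at 6 h and 4 and 3 from 2 to 6 h in PEO4, 1 and 4 (2 h) and 2 and 4 (6 h) for the difference between responses, and 6 higher at both 2 and 6 h of PDS between the lines. With over 1.5-fold, 2 were lower at 2 h and 2 at 6 h in PEO1 BRCA+, 1 higher and 4 lower at 2 h, 4 lower at 6 h and 1 higher and 1 lower from 2 to 6 h in PEO4, 1 higher and 2 lower (2 h) and 2 lower (6 h) for the responses, and 3 higher between the lines at 6 h. Library totals gave 1 lower over BRCA2-deficient PEO1, 1 lower at 2 h in PEO1 BRCA+, and 3 lower at 2 h and 0 higher and 3 lower at 6 h in PEO4, FZD4 being the third. Upper-quartile scaling gave 1 lower over BRCA2-deficient PEO1, 2 lower at 2 h and 0 higher and 3 lower at 6 h in PEO4, FZD4 again, and 1 lower for the 6 h responses. A filter of CPM of at least 1 in 3 libraries gave 1 lower over BRCA2-deficient PEO1 and 0 higher at 6 h in PEO4. The cause was not tested.

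Leaving out 1 library gave 1 to 2 lower over BRCA2-deficient PEO1, 0 to 1 higher and 1 to 3 lower at 2 h and 0 to 1 higher at 6 h in PEO4, 0 to 1 lower for the 6 h responses, and 1 to 2 higher and 0 to 1 lower between the lines at 6 h. Deviations of same-numbered libraries correlated at -0.06 to 0.09 in the table of 6 and at -0.30 to 0.53 (median 0.01) in the table of 18, and those of differently numbered libraries at -0.15 to 0.15 and -0.55 to 0.51 (median 0.00). Not every same-numbered pair exceeded 0.1, so the numbers were not taken to pair samples. The fit with a replicate block changed no count of members called, and 2 further values passed, the FZD5 response difference at 6 h (adjusted p = 0.033) and LRP6 between the lines at 2 h (0.031).

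With the longest transcript as length, untreated PEO4 had 56.6 (FZD6) and 56.7 (LRP5) CPM per kilobase, and the frizzled share of FZD6 was 56.0% in untreated PEO1 BRCA+, 60.3% in untreated and 58.9% in 6 h PEO4, with FZD2 at 12.3% and FZD1 at 5.35% in the last. Without length, FZD6, FZD2 and FZD1 took 45.9, 16.3 and 8.03% in untreated PEO1 BRCA+, 48.5, 9.80 and 14.5% in untreated PEO4 and 47.8, 10.1 and 8.02% at 6 h. With library totals, 2 ubiquitin ligase list genes were called lower at 6 h in PEO4, and 0 WNT ligand genes higher and 4 lower at 6 h in PEO1 BRCA+.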
